A study of Mus musculus with 24 samples.

Results

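The aminoacyl tRNA synthetases are the enzymes that join each amino acid to its tRNA. The 36 described here were the gene rows with the symbols of 20 cytosolic and 16 mitochondrial synthetases in a table of 23361 rows, and all 36 were present and passed the filter on low values. They were chosen by name and not by a measured value, though with earlier results of these data known. RNA was sequenced from primary leukaemia cells taken from mouse spleens. All groups, the unsorted cells included, share the genotype NRASG12V/Mll-AF9 on a (FVB/n X C57/BL/6J) F1 background, and the labels give no age and no treatment. The groups were unsorted cells (5 libraries), cells high for Mac-1 (MacHigh, 5 libraries) and 3 groups of cells low for Mac-1. The low cells were sorted by Kit and Sca-1 into MacLowKit-Sca1- with 5 libraries, MacLowKit+Sca1- with 5 and MacLowKit+Sca1+ with 4. These are shortened to Kit-Sca1-, Kit+Sca1- and Kit+Sca1+, and called the MacLow groups together. Unsorted cells are a mixture that can hold all of the others.

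Each cytosolic enzyme charges tRNAs for the ribosomes that translate nuclear messages, and its mitochondrial counterpart, also made from a nuclear gene, charges the tRNAs encoded in mitochondrial DNA. Several cytosolic enzymes sit together in a multi-synthetase complex held by the scaffold proteins Aimp1, Aimp2 and Eef1e1. Many cytosolic synthetase genes are known targets of ATF4, the transcription factor of the amino acid response, which binds C/EBP-ATF elements in promoters. Gars and Kars each make both the cytosolic and the mitochondrial form, and are counted here as cytosolic.

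The values are FPKM, fragments scaled to transcript length and library size, so levels can be set side by side between genes. Depth relative to the median library, read from the ratios of low values, ranged from 0.800 to 1.98 times, and read counts per library are unknown. The deepest Kit-Sca1- libraries were replicates 4 and 5, which had the highest and the second lowest mean cytosolic level of that group. The mean level of the sort marker Kit was under 1 FPKM in Kit-Sca1- cells and that of Ly6a, which encodes Sca-1, was under 1 FPKM in Kit+Sca1- cells. In Kit-Sca1- cells, also sorted as negative for Sca-1, the mean of Ly6a was 1 FPKM or more. The mean of Itgam, the sort marker for Mac-1, was 1 FPKM or more in every group, the MacLow groups included. Of the markers of other cells, the summed level of 6 red pulp macrophage genes was 485 to 1404 FPKM in Kit+Sca1+ libraries, 173 to 374 in MacHigh, 3.54 to 15.5 in Kit-Sca1- and 4.12 to 12.7 in Kit+Sca1-. Likewise 6 dendritic cell genes summed to 258 to 513 FPKM in Kit+Sca1+, to 114 to 342 in MacHigh, and to at most 57.7 in any Kit-Sca1- or Kit+Sca1- library. Erythroid genes summed to 270 to 1571 FPKM in unsorted cells and to 1.33 to 90.8 in the sorted libraries. No T or B cell list summed above 30.4 FPKM in any library. The 5 NK cell genes summed to 22.15 to 64.8 FPKM in Kit-Sca1-, 22.23 to 57.6 in Kit+Sca1+, 23.3 to 49.5 in MacHigh and 4.34 to 15.6 in Kit+Sca1-. In these bulk samples, fewer cells of a type and less RNA per cell cannot be told apart. The labels do not say whether libraries came from separate animals, so p-values measure the spread between these libraries, which may be technical.

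Cytosolic synthetases stood at group means of 14.6 FPKM (Cars in MacHigh) to 125 FPKM (Dars in Kit+Sca1-), and the mitochondrial members at 2.53 FPKM (Wars2 in Kit+Sca1-) to 34.0 FPKM (Iars2 in Kit-Sca1-), except Lars2. Lars2, the mitochondrial leucyl tRNA synthetase, had group means of 116 to 237 FPKM. The 20 cytosolic members summed to 832 to 1500 FPKM per library and the 15 mitochondrial members other than Lars2 to 138 to 224 FPKM. Kit-Sca1- cells had the highest mean among the sorted groups for 16 of the 20 cytosolic and 9 of the 16 mitochondrial members, against 21.1% of all 11599 rows tested. MacHigh cells had the lowest mean for 16 cytosolic and 11 mitochondrial members, against 29.4% of all rows. The exceptions among the cytosolic members were Dars, Cars and Farsa, which were highest in Kit+Sca1-, and Qars, which was highest in MacHigh.

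**Figure D1:**
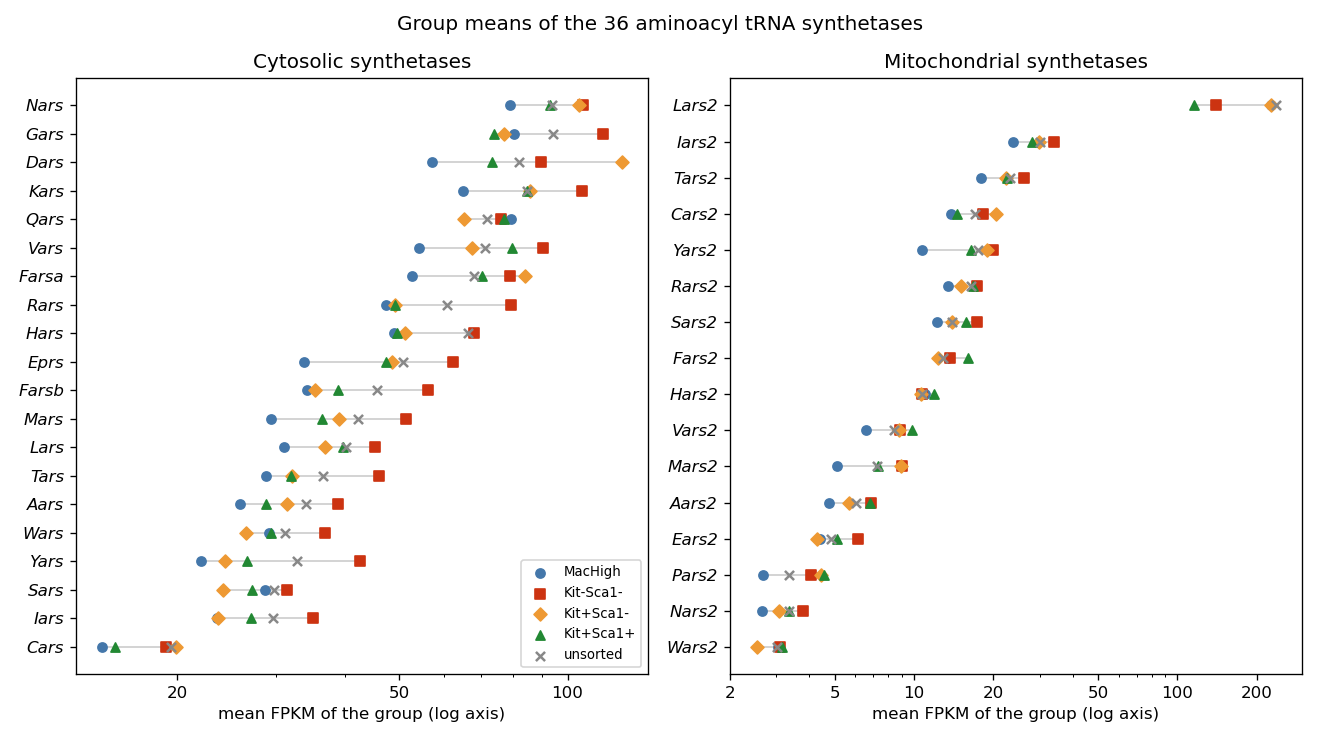
Mean FPKM of each synthetase (log axis) in the 5 groups, cytosolic members on the left and mitochondrial members on the right, ordered by level. Kit-Sca1- squares lie at the right end for 16 of 20 cytosolic members when the sorted groups are compared, and Lars2 lies apart from the other mitochondrial members at 116 to 237 FPKM.

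Differences among the 4 sorted groups passed the moderated F test of limma, at a Benjamini-Hochberg adjusted p under 0.05, for 31 of the 36 members, where 83.2% of all rows were called. The 31 were all 20 cytosolic members and 11 of the 16 mitochondrial members. The mitochondrial members that did not pass were Iars2 (adjusted p = 0.0529), Fars2 (0.0535), Nars2 (0.0972), Rars2 (0.139) and Hars2 (0.249). The span between the highest and lowest group mean had a median of 0.64 on the log2(FPKM + 1) scale in the cytosolic members, 0.48 in the mitochondrial members and 0.67 over all rows. Differences on this scale understate the change of genes with low levels.

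Kit-Sca1- cells against MacHigh cells gave 30 calls among the 36 members, the most of the comparisons between sorted groups, where 50.8% of all rows were called. Here 18 of the 20 cytosolic members were higher and 0 were lower, while 24.5% of all rows were called higher and 26.2% lower. Of the mitochondrial members, 11 of 16 were higher and 1, Lars2, was lower. The median log2 difference was 0.57 in the cytosolic members, 0.39 in the mitochondrial members and -0.02 over all rows. Most mitochondrial members stood at lower levels, so log2(FPKM + 1) shrinks their differences more. The part of the scale in the gap between the class medians was not measured, here or in the comparisons below. Rescaling the libraries to the same FPKM sum, the same median or the same quantiles left 18 cytosolic members higher and 0 lower. At equal sums 58.5% of all rows called were higher, against 48.3% as deposited. The libraries of these groups did not overlap for 17 of 20 cytosolic and 7 of 16 mitochondrial members, beside 35.7% of all rows. In the other comparisons between sorted groups, 28.8% to 45% of all rows did not overlap.

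Yars, which charges tyrosine tRNA, had the largest cytosolic difference in this comparison. It stood at 19.5, 20.9, 21.7, 26.3 and 22.1 FPKM in the MacHigh libraries, 39.6, 45.7, 33.9, 56.0 and 37.5 in Kit-Sca1-, 20.3, 20.3, 32.3, 27.4 and 21.3 in Kit+Sca1-, 25.9, 31.9, 23.04 and 25.8 in Kit+Sca1+ and 34.1, 30.2, 30.2, 38.7 and 30.6 in unsorted cells. All 5 Kit-Sca1- values lay above every value of the other sorted groups. The log2 difference from MacHigh was 0.90 ± 0.13 (SE, adjusted p = 1.15e-05). Eprs, which carries both the glutamyl and the prolyl activity, differed by 0.84 ± 0.15 (adjusted p = 7.61e-05), and Mars, the methionyl enzyme, by 0.77 ± 0.12 (adjusted p = 1.22e-05).

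Rars, the arginyl enzyme of the complex, stood at 47.7, 49.8, 45.8, 50.2 and 43.2 FPKM in the MacHigh libraries, 77.7, 85.5, 68.6, 97.4 and 66.2 in Kit-Sca1-, 43.5, 41.95, 62.5, 57.2 and 40.6 in Kit+Sca1-, 50.5, 51.5, 45.7 and 48.7 in Kit+Sca1+ and 61.8, 60.4, 56.0, 69.6 and 56.2 in unsorted cells. Kit-Sca1- again did not overlap the other sorted groups, with a difference of 0.72 ± 0.11 from MacHigh (adjusted p = 2.06e-05). Vars, the valyl enzyme, stood at 57.4, 48.5, 51.8, 52.8 and 60.8 FPKM in the MacHigh libraries, 100.2, 92.4, 72.0, 101.3 and 85.4 in Kit-Sca1-, 70.9, 61.1, 78.5, 64.0 and 62.3 in Kit+Sca1-, 91.2, 86.0, 63.0 and 78.0 in Kit+Sca1+ and 74.8, 66.2, 60.9, 80.1 and 73.5 in unsorted cells. Its Kit-Sca1- and Kit+Sca1+ libraries overlapped, and MacHigh lay below all MacLow libraries. Gars, the glycyl enzyme, stood at 82.0, 73.0, 77.0, 89.6 and 79.2 FPKM in the MacHigh libraries, 124, 122, 93.3, 138 and 102 in Kit-Sca1-, 68.4, 66.0, 89.0, 86.7 and 74.4 in Kit+Sca1-, 75.6, 82.0, 66.3 and 71.0 in Kit+Sca1+ and 97.3, 85.7, 86.4, 108 and 93.3 in unsorted cells. The 5 Kit-Sca1- libraries lay above all other sorted libraries and the other 3 sorted groups overlapped one another. Kars, the lysyl enzyme, stood at 64.7, 58.2, 61.0, 74.7 and 66.2 FPKM in the MacHigh libraries, 116, 114, 81.0, 128 and 92.8 in Kit-Sca1-, 82.6, 70.0, 111, 91.8 and 72.6 in Kit+Sca1-, 99.3, 88.2, 68.4 and 81.8 in Kit+Sca1+ and 86.8, 78.7, 75.5, 100.5 and 81.7 in unsorted cells. Kit-Sca1- lay above MacHigh without overlap and overlapped both Kit+ groups.

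The members that did not follow were Sars, the seryl enzyme (0.12 ± 0.08, adjusted p = 0.220), and Qars, the glutaminyl enzyme of the complex (-0.06 ± 0.07, adjusted p = 0.513). Qars stood at 78.3, 75.8, 76.6, 78.1 and 86.4 FPKM in the MacHigh libraries, 74.4, 78.9, 70.3, 81.8 and 74.0 in Kit-Sca1-, 66.0, 57.5, 72.4, 68.9 and 61.8 in Kit+Sca1-, 78.1, 78.3, 69.2 and 82.4 in Kit+Sca1+ and 75.1, 65.0, 67.1, 79.2 and 72.9 in unsorted cells. MacHigh and Kit-Sca1- overlapped, and only Kit+Sca1- lay below all MacHigh values. Wars, the tryptophanyl enzyme and an interferon-induced gene in many cells, was higher in Kit-Sca1- than in MacHigh by 0.32 ± 0.11 (adjusted p = 0.0153), a call lost without Kit-Sca1- replicate 4. It stood at 28.8, 27.6, 27.5, 33.2 and 29.1 FPKM in the MacHigh libraries, 35.4, 38.2, 31.7, 44.8 and 34.0 in Kit-Sca1-, 23.9, 23.7, 34.8, 27.7 and 22.5 in Kit+Sca1-, 29.9, 32.5, 26.3 and 29.0 in Kit+Sca1+ and 32.6, 29.1, 29.8, 35.7 and 28.7 in unsorted cells. The Kit-Sca1- and MacHigh values of Wars overlapped. Of 10 interferon genes beside it, 1 was higher and 6 were lower in the same comparison, with a median of -0.74, beside 24.5% and 26.2% of all rows, led by Cxcl10 (-1.12) and Ifit3 (-0.88).

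**Figure D2:**
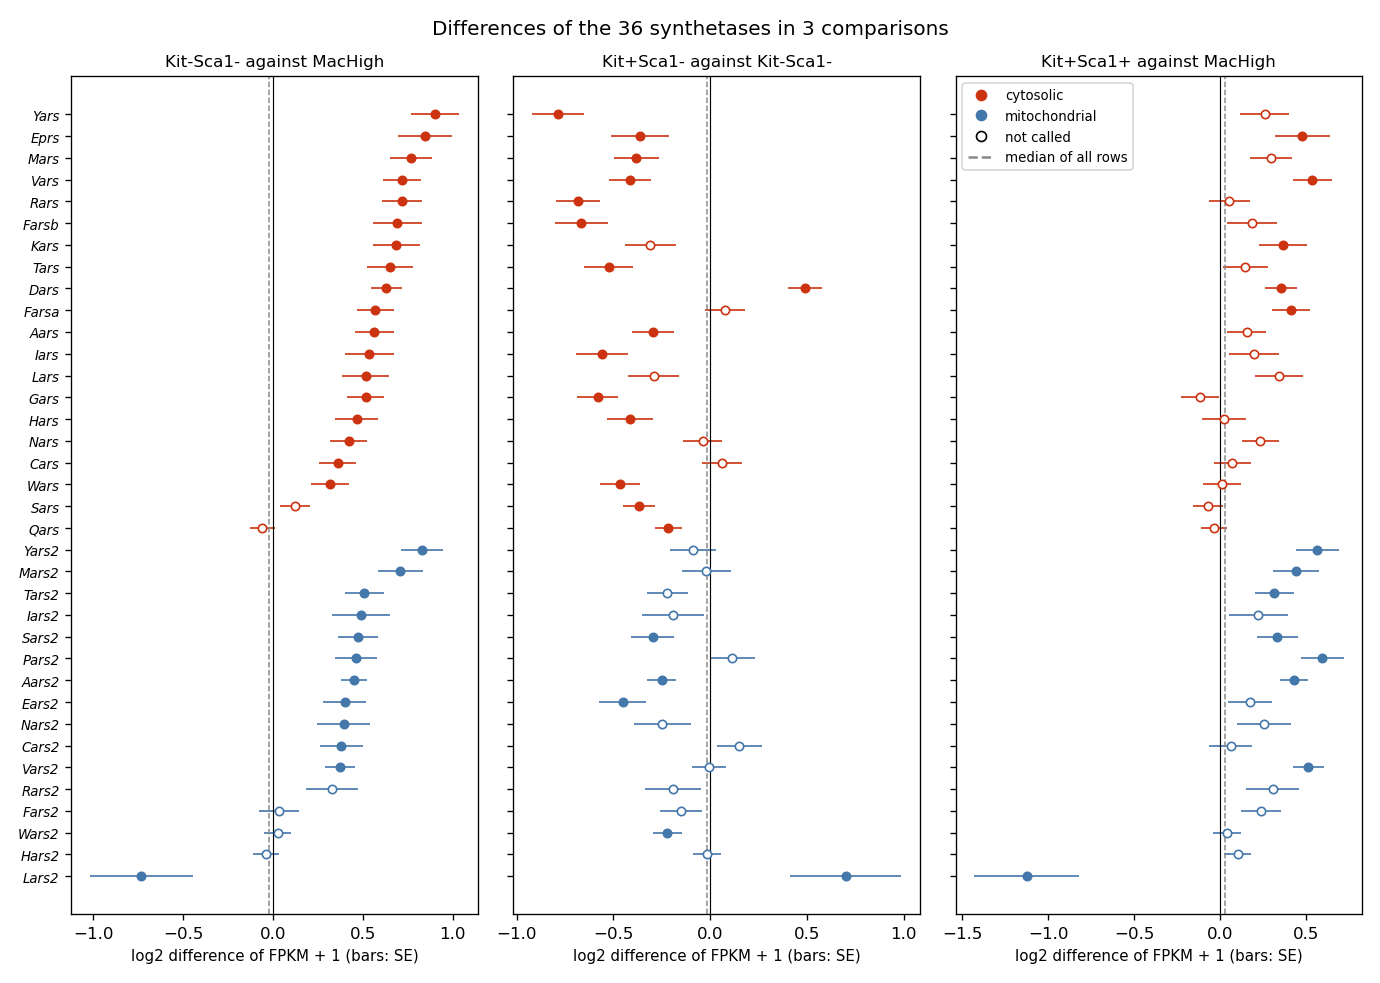
Log2 differences of FPKM + 1 with SE for the 36 synthetases in 3 comparisons, cytosolic in red and mitochondrial in blue, filled where adjusted p was under 0.05; the dashed line is the median of all rows. In Kit-Sca1- against MacHigh all cytosolic points but Qars lie right of 0, and Lars2 lies on the opposite side of most mitochondrial members in each panel.

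The enzymes of the complex and those outside it, and both structural classes of the family, gave like counts in this comparison; the difference was not tested. In the multi-synthetase complex 7 of 8 members were higher, Qars being the other, and outside it 11 of 12. Of the class I enzymes 8 of 9 were higher and of the class II enzymes 9 of 10; Eprs, which has a domain of each class, was in neither count. The 3 scaffolds of the complex were all higher in Kit-Sca1- than in MacHigh: Aimp1 by 0.28 ± 0.10 (adjusted p = 0.0252), Aimp2 by 0.78 ± 0.12 (1.71e-05) and Eef1e1 by 0.98 ± 0.16 (3.36e-05). Eef1e1 stood at 25.8 to 32.4 FPKM in MacHigh and at 48.9 to 81.7 FPKM in Kit-Sca1-.

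Among the mitochondrial members, Yars2 had the largest difference between Kit-Sca1- and MacHigh, 0.83 ± 0.12 (adjusted p = 5.86e-06). It stood at 10.2, 10.9, 10.7, 10.5 and 11.3 FPKM in the MacHigh libraries, 22.3, 20.8, 16.6, 23.8 and 16.7 in Kit-Sca1-, 16.9, 15.5, 25.5, 20.6 and 16.1 in Kit+Sca1-, 18.6, 17.0, 14.8 and 15.2 in Kit+Sca1+ and 17.3, 16.6, 16.2, 20.6 and 17.2 in unsorted cells. MacHigh lay below every other library, and the 3 MacLow groups overlapped. Mars2, the mitochondrial methionyl enzyme, stood at 5.84, 6.03, 4.46, 4.76 and 4.49 FPKM in the MacHigh libraries, 9.44, 10.7, 8.27, 9.48 and 7.12 in Kit-Sca1-, 9.33, 10.6, 8.67, 9.98 and 6.06 in Kit+Sca1-, 8.19, 6.46, 8.12 and 6.38 in Kit+Sca1+ and 7.01, 8.38, 6.59, 7.73 and 6.62 in unsorted cells. MacHigh was again below all MacLow libraries. Aars2 stood at 4.53, 5.06, 4.54, 4.83 and 4.95 FPKM in the MacHigh libraries, 6.55, 7.31, 6.64, 6.99 and 7.003 in Kit-Sca1-, 5.66, 4.97, 6.85, 5.68 and 5.17 in Kit+Sca1-, 6.94, 7.44, 6.28 and 6.50 in Kit+Sca1+ and 5.67, 5.97, 6.05, 6.91 and 5.60 in unsorted cells. Kit-Sca1- and Kit+Sca1+ lay above MacHigh without overlap, and Kit+Sca1- overlapped it. Vars2 stood at 6.18, 6.51, 7.04, 6.32 and 6.83 FPKM in the MacHigh libraries, 9.27, 8.48, 7.67, 9.90 and 8.82 in Kit-Sca1-, 8.43, 8.61, 9.97, 9.40 and 7.60 in Kit+Sca1-, 9.03, 12.0, 9.02 and 9.39 in Kit+Sca1+ and 8.88, 7.65, 8.05, 9.44 and 8.11 in unsorted cells. MacHigh lay below all MacLow libraries, and Kit+Sca1+ had the highest mean.

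Lars2 stood at 192, 255, 238, 205 and 238 FPKM in the MacHigh libraries, 152, 126, 152, 188 and 80.9 in Kit-Sca1-, 252, 277, 170.3, 289 and 148 in Kit+Sca1-, 75.9, 51.1, 160.3 and 175 in Kit+Sca1+ and 200.4, 231, 200, 366 and 186 in unsorted cells. In Kit-Sca1- all 5 values lay below all 5 MacHigh values, and the log2 difference was -0.73 ± 0.29 (adjusted p = 0.0377). That call was lost without the filter on low values, under all 3 rescalings of the libraries, with the replicate block, and without any one of MacHigh replicates 2, 3 and 5 or Kit-Sca1- replicates 2 and 5. Of its 31-base runs, 1.09% were shared with other annotated transcripts, those of AA474408 and Gm15564. A share of runs does not give the share of fragments that came from those transcripts, which was not measured. Sequence outside annotated transcripts was not searched.

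**Figure D3:**
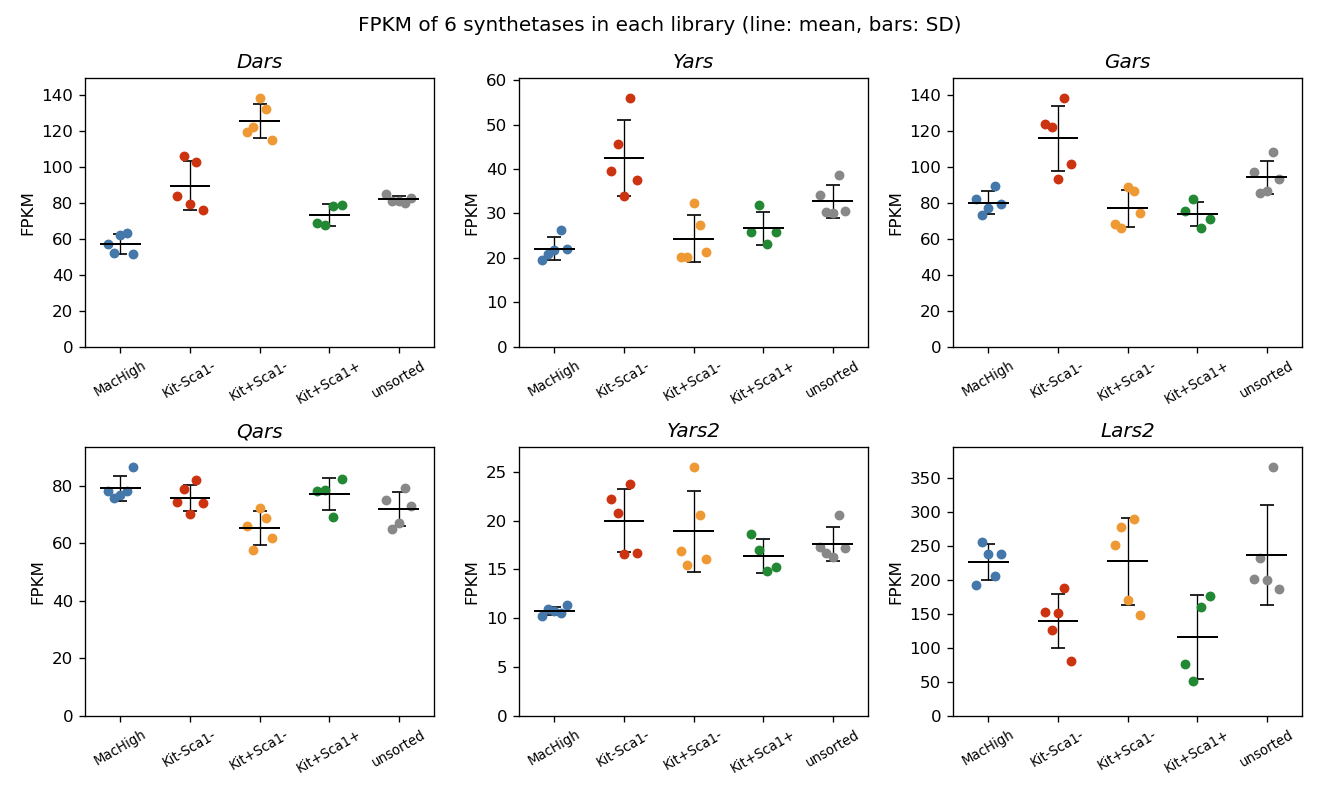
FPKM in each library for 6 synthetases, with the group mean (line) and SD (bars); the axes start at 0. Dars is highest in Kit+Sca1-, Yars and Gars in Kit-Sca1-, Yars2 is lowest in MacHigh, and Lars2 is low in Kit-Sca1- and Kit+Sca1+.

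The comparisons of Kit+Sca1- and Kit+Sca1+ with Kit-Sca1- share the Kit-Sca1- libraries with the one against MacHigh. Their directions are therefore not independent of it. Kit+Sca1- cells against Kit-Sca1- cells gave the opposite direction for the cytosolic members. Of the 20, 14 were lower and 1 was higher, where 50.2% of all rows were called, 26.3% lower and 24% higher. Of the 16 mitochondrial members 4 were lower and 1 higher. The median log2 difference was -0.37, -0.17 and -0.02 in cytosolic members, mitochondrial members and all rows. The largest falls were those of Yars (-0.79 ± 0.13, adjusted p = 4.7e-05), Rars (-0.68 ± 0.11, 2.95e-05) and Farsb (-0.67 ± 0.14, 0.000326), and among mitochondrial members Ears2 (-0.45 ± 0.12, 0.00364). Lars2 was higher by 0.70 ± 0.29 (adjusted p = 0.0467), a call lost in 16 of 24 fits without 1 library and with the replicate block. This comparison moves with the scaling: Kit+Sca1- libraries had the lowest FPKM sums (mean 473600 against 557200), and at equal sums the median of all rows was 0.18 and 71.5% of the rows called were higher, against 47.7% as deposited. Then 4 cytosolic members were lower and 1 higher, and 0 mitochondrial members lower and 2 higher, 7 calls in place of 20. With the prefix as replicate block 7 mitochondrial members were lower and 0 higher.

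Dars, the aspartyl enzyme of the complex, was the member called higher among the cytosolic ones. It stood at 56.8, 52.2, 62.1, 63.0 and 51.2 FPKM in the MacHigh libraries, 83.7, 106, 79.2, 102 and 75.9 in Kit-Sca1-, 119, 122, 138, 132 and 115 in Kit+Sca1-, 68.4, 67.4, 78.0 and 78.9 in Kit+Sca1+ and 84.7, 81.1, 81.0, 79.5 and 82.7 in unsorted cells. Every Kit+Sca1- value lay above every other library of the series, including the unsorted cells. The difference was 1.12 ± 0.09 from MacHigh (adjusted p = 2.48e-10) and 0.49 ± 0.09 from Kit-Sca1- (8.19e-05), and Kit+Sca1+ was lower than Kit+Sca1- by -0.77 ± 0.09 (3.82e-07). These 3 calls held in every alternative and without any one library. The gene lies on chromosome 1 (chr1:128363707-128417416, GRCm38.p6). Farsa, the alpha subunit of the phenylalanyl enzyme, stood at 54.8, 49.5, 48.5, 58.0 and 52.3 FPKM in the MacHigh libraries, 79.5, 82.4, 69.7, 89.6 and 72.5 in Kit-Sca1-, 82.9, 73.0, 106, 89.5 and 67.6 in Kit+Sca1-, 78.1, 70.6, 64.0 and 68.8 in Kit+Sca1+ and 69.2, 63.5, 58.5, 80.9 and 67.6 in unsorted cells. MacHigh lay below all MacLow libraries. Farsb, the beta subunit of the same enzyme, had a different order, with means of 56.3 ± 10.8 FPKM in Kit-Sca1-, 38.8 ± 1.47 in Kit+Sca1+ (SD, n = 4), 35.3 ± 8.05 in Kit+Sca1- and 34.1 ± 3.37 in MacHigh (SD, n = 5 each unless given). In Kit+Sca1- against Kit-Sca1-, Farsb differed by -0.67 as above and Farsa by 0.08 ± 0.10 (adjusted p = 0.574); the difference between the subunits was not tested.

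Kit+Sca1+ cells against Kit-Sca1- cells gave 11 cytosolic members lower and 0 higher, where 45.2% of all rows were called, 23.3% lower and 21.8% higher. Of the mitochondrial members 1, Cars2, was lower (-0.32 ± 0.12, adjusted p = 0.0399) and 0 were higher. The medians were -0.33, -0.14 and -0.03 in cytosolic members, mitochondrial members and all rows. Rars differed by -0.66 ± 0.12 (adjusted p = 9.54e-05), Yars by -0.64 ± 0.14 (0.000866) and Gars by -0.63 ± 0.11 (7.08e-05). The Cars2 call was lost without the filter, at equal FPKM sums, in the fit of these groups only and without any one of 5 libraries. With the prefix as replicate block 14 cytosolic and 3 mitochondrial members were lower. Leaving out Kit-Sca1- replicate 2 lowered the family's count from 12 to 8.

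Against MacHigh, Kit+Sca1- gave 11 cytosolic calls and Kit+Sca1+ gave 5; both share the MacHigh libraries with the comparison of Kit-Sca1-. In Kit+Sca1- 9 of 20 cytosolic members were higher and 2 lower, where 62.8% of all rows were called, 32.5% higher and 30.3% lower, and 7 of 16 mitochondrial members were higher and 1 lower. Dars was followed by Farsa (0.65 ± 0.10, adjusted p = 1.24e-05) and Eprs (0.48 ± 0.15, 0.00741), and among mitochondrial members Yars2 (0.74 ± 0.12, 8.99e-06) was followed by Mars2 (0.69 ± 0.13, 5.58e-05). The members called lower were Qars, Sars and Wars2, each of which was above 0 and not called at equal FPKM sums. At equal sums the median of all rows was 0.32, 71.8% of rows called were higher against 51.7% as deposited, and 14 cytosolic and 12 mitochondrial members were higher with 0 lower. In Kit+Sca1+ 5 cytosolic members were higher and 0 lower, and 7 mitochondrial members higher and 1 lower, where 46% of all rows were called, 23.6% higher and 22.4% lower. At equal sums 62.8% of rows called were higher, against 51.3% as deposited. Vars (0.53 ± 0.11, adjusted p = 0.000555), Eprs (0.48 ± 0.16, 0.0174) and Farsa (0.41 ± 0.11, 0.00419) led the cytosolic members. Eprs was not called without Kit+Sca1+ replicate 2. Among mitochondrial members Lars2 was lower (-1.13 ± 0.30, adjusted p = 0.00433) and Pars2, the prolyl enzyme, was higher (0.59 ± 0.12, 0.000426). With the prefix of the sample name as replicate block the count in Kit+Sca1+ was 20 instead of 13. The red pulp macrophage markers summed to 485 to 1404 FPKM in Kit+Sca1+ and 173 to 374 in MacHigh, and the dendritic cell markers to 258 to 513 and 114 to 342; their part in these differences was not tested.

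Between the Kit+ groups, 1 cytosolic member was higher in Kit+Sca1+ and 2 were lower, where 55.2% of all rows were called, 26.8% higher and 28.5% lower. Besides Dars, Cars was lower (-0.35 ± 0.11, adjusted p = 0.00983) and Qars higher (0.24 ± 0.08, 0.0107). Of the mitochondrial members 3 were higher and 2 lower, led by Lars2 (-1.09 ± 0.30, 0.00406) and Cars2 (-0.47 ± 0.12, 0.00266). In a fit of these groups alone 4 members were called in place of 8, all lower in Kit+Sca1+. At equal sums the median of all rows was -0.21, and 32.2% of rows called were higher against 48.5% as deposited (38.5% at equal quantiles). Then 4 cytosolic and 4 mitochondrial members were lower with 0 higher. At equal quantiles 2 cytosolic members were higher and 2 lower, and 1 mitochondrial member was higher and 5 lower.

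The balance of the cytosolic and mitochondrial members was set out per library. The mean log2(FPKM + 1) of the 20 cytosolic members minus that of the 15 mitochondrial members without Lars2 was 2.31 ± 0.08 in Kit-Sca1- (SD, n = 5, range 2.22 to 2.41). It was 2.15 ± 0.05 in MacHigh (n = 5, 2.10 to 2.23), 2.11 ± 0.09 in Kit+Sca1- (n = 5, 1.98 to 2.21) and 2.04 ± 0.02 in Kit+Sca1+ (n = 4, 2.01 to 2.07). Unsorted cells stood at 2.24 ± 0.07 (n = 5, 2.17 to 2.32). Without Lars2, Kit-Sca1- overlapped MacHigh slightly, lay just above Kit+Sca1- and lay above Kit+Sca1+, and Kit+Sca1+ lay below MacHigh without overlap. Over all 16 mitochondrial members the difference was 2.09 ± 0.07 in Kit-Sca1- (2.00 to 2.17), 1.86 ± 0.06 in MacHigh (1.81 to 1.95), 1.84 ± 0.11 in Kit+Sca1- (1.69 to 1.98) and 1.84 ± 0.07 in Kit+Sca1+ (1.78 to 1.93), SD with the same n. With Lars2, Kit-Sca1- lay above the other sorted groups without overlap, and those overlapped one another, so both relations of MacHigh turn on this 1 member. No test is given for this score, since it was formed over chosen members. The score also understates changes of the mitochondrial members more, since most of them stood at lower levels. As a ratio of summed FPKM without Lars2, cytosolic to mitochondrial, the mean was highest in Kit-Sca1- (6.37), followed by MacHigh (5.93), Kit+Sca1- (5.78) and Kit+Sca1+ (5.48). With Lars2 in the sum they were 3.78 ± 0.36, 2.34 ± 0.23, 2.62 ± 0.53 and 3.46 ± 0.79 (SD) in that order, and Kit+Sca1+ then stood above MacHigh without overlap.

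**Figure D4:**
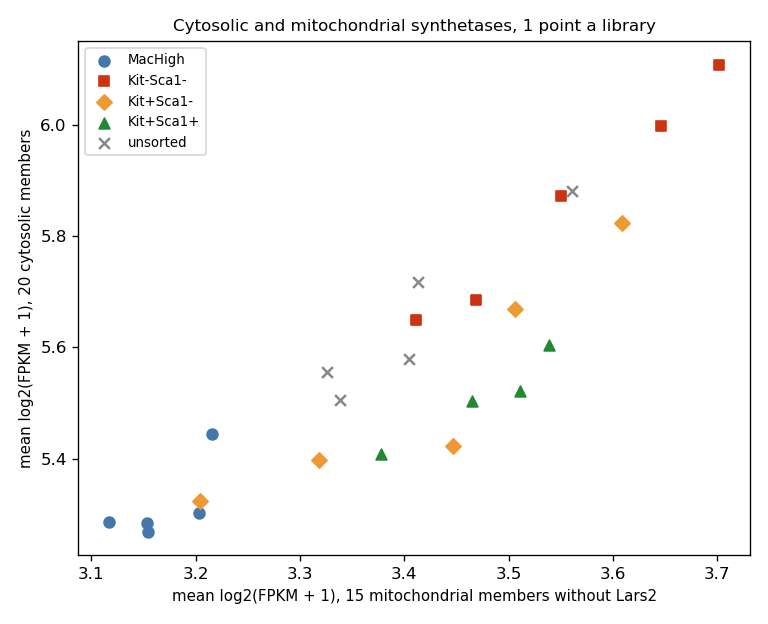
Mean log2(FPKM + 1) of the 20 cytosolic members against that of the 15 mitochondrial members without Lars2, 1 point a library. Kit-Sca1- squares reach the highest levels of both, and the Kit+Sca1+ triangles lie below the line of the squares, with a difference of 2.01 to 2.07 against 2.22 to 2.41.

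Against unsorted cells, MacHigh had 14 of 20 cytosolic and 5 of 16 mitochondrial members lower and 0 higher, where 39.4% of all rows were called, 18.2% lower and 21.3% higher. At equal FPKM sums 17 cytosolic and 10 mitochondrial members were lower and 0 higher, and with the prefix as replicate block 17 and 9 were lower and 1 cytosolic member was higher. Kit-Sca1- had 2 cytosolic members higher, Rars (0.36 ± 0.11, adjusted p = 0.0318) and Vars (0.34 ± 0.11, 0.0386), where 14.6% of all rows were called, 5.67% higher and 8.91% lower. At equal quantiles 0 cytosolic and 3 mitochondrial members were higher instead. The count of 2 was 13 with the replicate block, 24 with library weights, 4 at equal medians and 0 at equal FPKM sums. It was 0 without any one of unsorted replicates 1, 2, 3 and 5 or Kit-Sca1- replicates 1, 2 and 4, and 6 without unsorted replicate 4 or Kit-Sca1- replicate 3. Kit+Sca1- had 2 cytosolic members higher and 7 lower, and 1 mitochondrial member in each direction, where 47.4% of all rows were called, 23.6% higher and 23.8% lower. At equal FPKM sums 2 cytosolic and 3 mitochondrial members were higher and 0 lower, and at equal medians 2 cytosolic members were higher and 2 lower and 2 mitochondrial members higher and 0 lower. A fit of these groups alone gave 2 members higher and 3 lower. Kit+Sca1+ had 3 cytosolic members lower, 1 mitochondrial member lower and 1 higher, where 33% of all rows were called, 15.7% lower and 17.2% higher. The count of 11 in Kit+Sca1- was 5 without unsorted replicate 4, 7 without unsorted replicate 1 and 6 without Kit+Sca1- replicate 1 or 2. The count of 5 in Kit+Sca1+ was 2 without unsorted replicate 4 and 3 without unsorted replicate 1 or Kit+Sca1+ replicate 1. At equal FPKM sums the share of higher among rows called moved from 53.9% to 24.4% in MacHigh, from 38.9% to 9.15% in Kit-Sca1-, from 49.7% to 62.7% in Kit+Sca1- and from 52.3% to 40.9% in Kit+Sca1+; at equal medians and quantiles it was 50.7% and 53.2% in Kit-Sca1-, and at equal quantiles 64.6% in Kit+Sca1-. The erythroid markers, at 270 to 1571 FPKM in unsorted cells, move with these comparisons and their part was not tested.

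Promoter sequence was set beside these levels for the element of the amino acid response. RefSeq (GRCm38.p6) gave a window of 250 bases before to 50 bases after the start for 27 of the 36 members, 13 cytosolic and 14 mitochondrial. The C/EBP-ATF element, searched as TGATGNAA on both strands, was in the windows of 5 of the 13 cytosolic members (38.5%) and 0 of the 14 mitochondrial members, against 4.51% of all 27025 genes with a window and 2.89% of those among the rows tested. At the shares of all genes few or no matches are expected in 14 windows, so 0 of 14 does not set the mitochondrial members apart. The stretches of the 5 members are shown with the element in capitals, 5′ to 3′ along the gene. In the first 4 the element is read on the opposite strand.
Aars: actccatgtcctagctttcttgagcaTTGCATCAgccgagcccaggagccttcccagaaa
Gars: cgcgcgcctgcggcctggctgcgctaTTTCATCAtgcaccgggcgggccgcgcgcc
Tars: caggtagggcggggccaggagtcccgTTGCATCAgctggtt
Iars: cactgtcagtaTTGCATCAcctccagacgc
Yars: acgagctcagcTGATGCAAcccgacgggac

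The stretches lie at chr8:111033704-111033763 for Aars, chr6:55037945-55038000 for Gars, chr13:49682126-49682155 for Iars and chr4:129189895-129189924 for Yars, all on the plus strand, and at chr15:11399659-11399699 on the minus strand for Tars. With the start base as 0, the elements began at -112 in Aars, -30 in Gars, -15 in Tars, 7 in Iars and 3 in Yars. Those of Iars and Yars lie just inside the transcript, and Aars held another at 9. Against MacHigh, all 5 of these members were higher in Kit-Sca1-, by 0.51 to 0.90, and 6 of the 8 cytosolic members whose window lacked the letters were also higher, by -0.06 to 0.84 over the 8. In Kit+Sca1- against Kit-Sca1-, which shares the Kit-Sca1- libraries, all 5 were lower, by -0.79 to -0.29, against 5 of 8. The E-box CACGTG, the site of Myc and related factors and the same on both strands, was in 4 of 13 cytosolic windows (Aars, Farsb, Iars and Tars) and 1 of 14 mitochondrial windows (Ears2), against 8.09% of all genes and 12.0% of those tested. The ETS motif CCGGAAG, on both strands, was in 5 of 13 and 4 of 14, against 9.93% and 21.1%. A match of letters is a description and shows no binding.

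Other genes of the same pathways were counted from lists written by name. Over all rows, 24.5% were higher and 26.2% lower in Kit-Sca1- against MacHigh, with a median of -0.02, and 24% were higher and 26.3% lower in Kit+Sca1- against Kit-Sca1-. Of 29 genes of tRNA processing, modification and export tested, 25 were higher in Kit-Sca1- than in MacHigh and 0 lower, with a median of 0.54. Rpp30, a subunit of RNase P, differed by 0.72 ± 0.10 (adjusted p = 3.05e-06) and Mettl1, a tRNA methyltransferase, by 1.12 ± 0.17 (1.62e-05). In Kit+Sca1- against Kit-Sca1- 14 of the 29 were lower and 2 higher, led by Tsen54 (-0.75 ± 0.11, 3.56e-06) and Wdr4 (-0.62 ± 0.11, 6.97e-05). Another list held 25 genes of cytosolic initiation, elongation and release factors and of kinases that act on them. Of these, 15 were higher and 4 lower in Kit-Sca1- against MacHigh, with a median of 0.52. The largest were Eef2k, the kinase of elongation factor 2 (1.35 ± 0.13, 5.5e-08), and Eif5a (0.84 ± 0.12, 5.98e-06). Of 20 genes of RNA polymerase III, the enzyme that makes tRNA, 9 were higher and 3 lower, with a median of 0.26. Of 23 mitochondrial translation genes 11 were higher and 1 lower, with a median of 0.30, led by Tsfm (0.92 ± 0.11, 1.05e-06) and Gfm1 (0.79 ± 0.13, 3.63e-05).

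Of 23 amino acid response genes tested other than synthetases, 12 were higher and 2 lower in Kit-Sca1- than in MacHigh, with a median of 0.33, beside 24.5% and 26.2% of all rows. Shmt2 (1.63 ± 0.16, adjusted p = 6.44e-08) and Psat1 (1.29 ± 0.14, 1.76e-07), enzymes of serine and glycine synthesis, had the largest statistics. In Kit+Sca1+ against MacHigh 4 were higher and 9 lower (median -0.10), beside 23.6% and 22.4% of all rows. The 36 synthetases had 12 higher and 1 lower there. In Kit+Sca1- against MacHigh 8 were higher and 9 lower (median 0.07), beside 32.5% and 30.3% of all rows. The synthetases had 16 higher and 3 lower there. In Kit+Sca1+ against Kit-Sca1- 15 of the 23 were lower and 0 higher, with a median of -0.55, beside 23.3% lower and 21.8% higher over all rows, led by Psat1 (-1.38 ± 0.15, 6.8e-08) and Atf5 (-1.22 ± 0.16, 2.07e-06). In Kit+Sca1- against Kit-Sca1- 13 were lower and 2 higher, beside 26.3% and 24% of all rows, led by Nupr1 (-3.21 ± 0.25, 5.49e-10) and Sesn2 (-1.63 ± 0.17, 4.26e-08). The 2 higher ones, picked out after their values were seen, were Asns, which makes asparagine from aspartate (0.86 ± 0.17, adjusted p = 0.0002), and Chac1 (1.32 ± 0.25, 0.000115). Asns stood at 36.2 to 56.9 FPKM in Kit+Sca1-, 20.7 to 29.4 in Kit-Sca1- and 9.69 to 20.8 in MacHigh, without overlap between Kit+Sca1- and either. Myc was higher than in MacHigh in all 3 MacLow groups, by 0.92 ± 0.22 in Kit-Sca1- (adjusted p = 0.00129), 0.90 ± 0.22 in Kit+Sca1- (0.00102) and 1.13 ± 0.23 in Kit+Sca1+ (0.000338), and Mxd4, an antagonist of Myc, was lower in Kit-Sca1- (-1.13 ± 0.22, 0.000175). The list of Myc, Mycn, Max, Mxd1, Mxd4 and Mnt had 5 genes tested. Against MacHigh 3 were higher and 2 lower in Kit-Sca1-, beside 24.5% and 26.2% of all rows. In Kit+Sca1- 1 was higher and 2 lower, beside 32.5% and 30.3%. In Kit+Sca1+ 1 was higher and 1 lower, beside 23.6% and 22.4%.

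**Figure D5:**
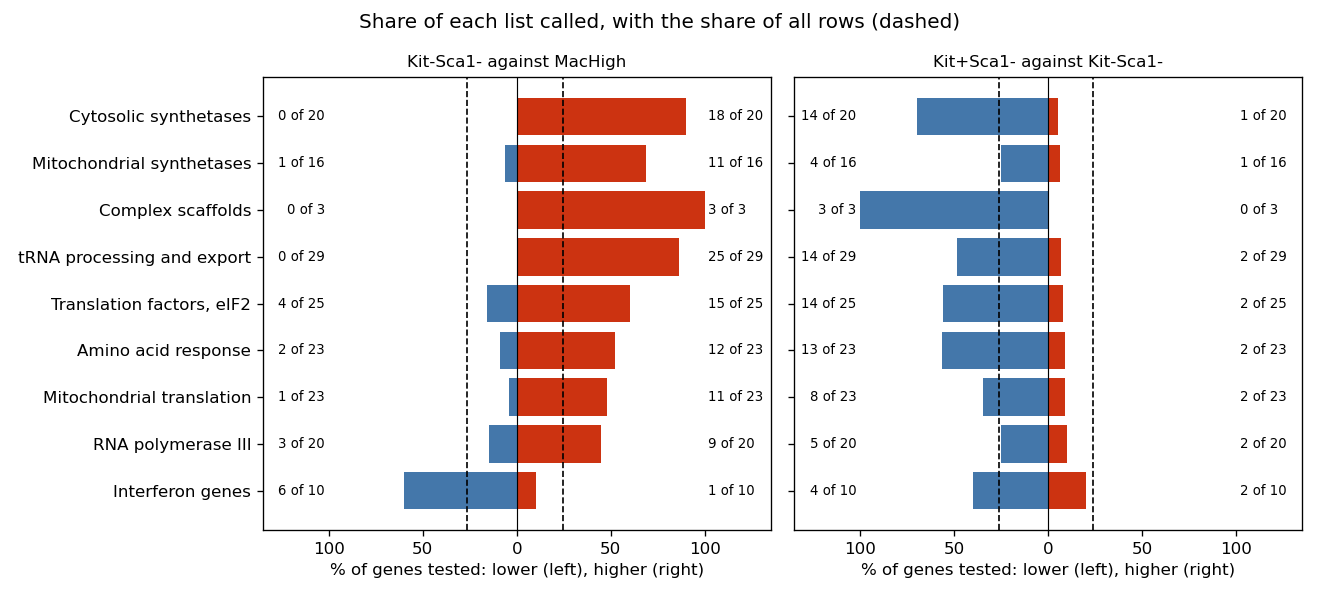
Percent of each list's tested genes called higher (right) or lower (left), with counts, in 2 comparisons; the dashed lines are the shares of all rows. In Kit-Sca1- against MacHigh the synthetases and the tRNA processing genes reach 18 of 20, 11 of 16 and 25 of 29 higher, beside 24.5% of all rows.

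Some members share sequence or exons with other genes, and neither the counting strand nor the annotation is given in the sources used here, so their values are uncertain to that degree. In GENCODE M21, Hars and Hars2 start 197 bases apart on opposite strands and their exons overlap by 195 bases; Hars passed the F test and Hars2 did not. Exons of other genes cover 24.2% of the exon bases of Iars2, mostly Rab3gap2, and 15.1% of those of Aars, mostly Exosc6. On the same strand, 22.7% of the 31-base runs of the longest Aars transcript were shared with Exosc6 and 17.7% of those of Iars with other transcripts, chiefly Gm4849. For Lars2 the share of runs was 1.09%, and the share of its fragments was not measured.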

How the data were processed

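RNA was isolated with RNeasy and sequenced with Illumina libraries, per the labels' protocols. The authors deposited 1 table of FPKM, with 23361 gene rows and 24 library columns, each matched to its sample by name, with 0 columns unmatched. The tools named are TopHat2 2.0.4 and Cuffdiff, and the build mm10, per the submitters' processing notes; the annotation and any scaling between libraries are not given in the sources used here. A value of 0.001 stands where others would be 0, and 0 members were so listed in a whole group.

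Values were taken as log2(FPKM + 1). Rows reaching 1 FPKM in 4 libraries (11599) were fitted with limma 3.58.1 in R 4.3.3, in 1 model of the 5 groups, with moderated variances and a trend on the mean, checked on simulated data. Calls are at a Benjamini-Hochberg adjusted p under 0.05 over all rows tested. No list was tested. Alternatives are listed in the closing section. The members, lists, tests and rule for named genes were chosen with earlier results of these data known. Per-library values are given for the 6 cytosolic and 4 mitochondrial members with the smallest F test p, for Gars, Kars and Wars, and for others the text turns on (Qars, Lars2 and, as means, Farsb, picked after their values were seen). For each sorted comparison the 3 cytosolic and 2 mitochondrial members with the largest called differences are named, and for each other list the 2 genes with the largest statistics, except RNA polymerase III, whose single genes are not reported here.

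Same-prefixed libraries deviated together, with every correlation over 0.1, in 7 of the 10 comparisons; whether a prefix marks an animal is not stated. All 36 members matched RefSeq genes of GRCm38.p6, 35 by symbol and 1 by synonym. Figures used matplotlib 3.10.9.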

Additional observations from a re-analysis of the deposited data

Results flagged for a closer look

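In 9 of 180 sets of libraries (36 members in 5 groups, 5%) 1 library stood apart from the rest of its group by Dixon's criterion, which chance gives in about 1 in 20. Unsorted replicate 4 held 4 of them: Hars at 89.3 FPKM (next 65.8), Ears2 at 5.93 (4.75), Lars2 at 365.5 (231) and Yars2 at 20.6 (17.3), each the highest of its group. Kit+Sca1+ replicate 2 was highest for Aars at 31.9 FPKM (next 27.98) and for Vars2 at 12.0 (9.39). Kit+Sca1+ replicate 3 was lowest for Fars2 at 13.2 FPKM (next 16.9). MacHigh replicate 5 was highest for Qars at 86.4 FPKM (next 78.3) and MacHigh replicate 4 for Wars at 33.2 (29.1).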

How the results depend on the processing

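The 11 counts of called members were recomputed with a pseudocount of 0.1, without the filter or at 5 FPKM, with 3 rescalings, only the groups compared, 2 replicate blocks, library weights, without Gars and Kars, and without each library in turn. Setting members listed at 0 in a group to missing gave no value, since there were 0. Outside the left-out libraries, 109 of 121 counts stayed within 1.5 times of the reported one. With the prefix as replicate block the count was 20 in place of 13 in Kit+Sca1+ against MacHigh and 13 in place of 2 in Kit-Sca1- against unsorted; the title number as block gave 6 there and 8 in place of 5 in Kit+Sca1+ against unsorted. Pairing by title number did not hold in the correlations. Equal FPKM sums gave 7 in place of 20 in Kit+Sca1- against Kit-Sca1-, 0 in Kit-Sca1- against unsorted and 5 in place of 11 in Kit+Sca1- against unsorted, where equal medians gave 4 and 6 in the last 2 comparisons. Only the groups compared gave 4 in place of 8 in Kit+Sca1+ against Kit+Sca1- and 5 in Kit+Sca1- against unsorted. Library weights gave 24 in Kit-Sca1- against unsorted.

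Without each library in turn the counts ranged from 31 to 33 in the F test, 28 to 31 in Kit-Sca1- against MacHigh, 9 to 15 in Kit+Sca1+ and 15 to 19 in Kit+Sca1- against MacHigh, 16 to 22 in Kit+Sca1- and 8 to 17 in Kit+Sca1+ against Kit-Sca1-, and 7 to 12 between the Kit+ groups. Against unsorted they ranged from 14 to 22 (MacHigh), 0 to 6 (Kit-Sca1-), 5 to 11 (Kit+Sca1-) and 2 to 7 (Kit+Sca1+). Of 102 calls of single members in the 6 comparisons between sorted groups, 77 were kept without any one library and 63 under all alternatives.

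Signs changed as follows. At equal sums, Kit+Sca1- against MacHigh was 0.055 for Qars, 0.080 for Sars, 0.25 for Hars2 and 0.050 for Wars2 (0.13 at equal quantiles), and against Kit-Sca1- it was 0.012 for Qars and 0.050 for the mitochondrial median. In Kit+Sca1+ against Kit+Sca1- the mitochondrial median was -0.055 at equal sums and -0.080 at equal quantiles. At equal quantiles Aars2 was -0.0306, Pars2 -0.34 and Wars2 -0.22 there, and Wars2 was -0.25 in Kit+Sca1+ against Kit-Sca1-. Some of the changed signs had an adjusted p under 0.05 in the moderated t test. These were Hars2 (0.039), Pars2 (0.0267) and Wars2 in Kit+Sca1+ (0.0275 against Kit+Sca1- and 0.0166 against Kit-Sca1-). The cause was not tested, and the read depth is unknown.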
